A study of Homo sapiens with 18 samples.

Results

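The interferon-stimulated genes are the genes that cells switch on in answer to interferon, and most of their products act against viruses. The set described here held 41 such genes, taken by symbol and matched through their Ensembl identifiers to 41 of the 57820 genes in the count table. Of the 41, 40 had enough counts to be tested among 15307 genes. The member left out, RSAD2 (viperin, an antiviral enzyme), had between 0 and 27 counts per library. The cells were MDA-MB-231, an established triple-negative line of human breast cancer, labelled as wild type and collected 72 hours after lipofection of siRNA. The 3 groups of 6 libraries each received a control siRNA (siCtrl) or either of 2 siRNAs against RagC, siRagC1 and siRagC2, so the control cells had been transfected with an siRNA as well. RRAGC encodes RagC, the GTPase that holds the growth kinase complex mTORC1 at the lysosome, and the study used its loss to repress mTORC1. By their library codes, replicates 1 and 2 belonged to a series D1103 and replicates 3 to 6 to a series D1221, and the sources used here do not explain these codes. The question followed here is whether 1 siRNA alone moved these genes, and in which libraries.

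Interferons are secreted proteins made when a cell detects foreign nucleic acid, for example through the RNA sensors RIG-I (RIGI) and MDA5 (IFIH1). Type I and type III interferons bind receptors that activate the kinases JAK1 and TYK2. These act on transcription factors, STAT2 and IRF9 among them, that bind the interferon-stimulated response element, a repeat of GAAA units in the promoters of their targets. Many cancer lines hold a low, steady level of these genes without added interferon.

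Promoter windows in RefSeq (build GRCh38.p14, 250 bases before to 50 bases after each gene's start) were matched for 33 of the 41 genes. The core of the response element, searched as GAAA-NN-GAAA (N being any base) on either strand, was in a window of 24 of the 33 genes (72.7%) and of 1195 of all 27305 genes with a window (4.38%). Counted by window, because some genes have several starts, it was in 28 of 41 windows of the members (68.3%) and in 1255 of 35116 windows in all (3.57%). A second motif, TTCNNNGAA, the palindrome that STAT dimers bind, was chosen after the first was counted and was in 9 of the 33 genes (27.3%) against 9.38% of all genes. A match describes the letters only, and no measurement of binding was made. The 200 bases before the start are printed for 5 genes described below, all of which hold a match. Each match to that core, on either strand, is in capitals. Other genes described below are not printed, among them HERC6, whose window held no match, and OASL, which had no window. In IFIH1 the first stretch of capitals is 2 overlapping matches.
DDX60, chr4:168318753-168318952, minus strand: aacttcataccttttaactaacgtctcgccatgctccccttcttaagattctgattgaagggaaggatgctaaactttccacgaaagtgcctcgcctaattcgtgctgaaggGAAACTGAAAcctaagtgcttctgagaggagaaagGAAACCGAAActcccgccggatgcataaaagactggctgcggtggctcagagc
IFIT3, chr10:89327797-89327996, plus strand: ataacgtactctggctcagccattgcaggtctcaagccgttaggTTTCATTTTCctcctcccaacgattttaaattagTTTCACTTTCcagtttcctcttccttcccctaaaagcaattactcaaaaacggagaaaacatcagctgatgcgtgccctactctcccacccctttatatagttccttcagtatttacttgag
IFI44, chr1:78649589-78649788, plus strand: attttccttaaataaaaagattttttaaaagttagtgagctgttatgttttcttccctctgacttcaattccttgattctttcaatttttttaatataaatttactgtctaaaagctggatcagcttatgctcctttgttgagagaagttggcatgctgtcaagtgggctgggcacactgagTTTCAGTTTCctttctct
IFIH1, chr2:162318685-162318884, minus strand: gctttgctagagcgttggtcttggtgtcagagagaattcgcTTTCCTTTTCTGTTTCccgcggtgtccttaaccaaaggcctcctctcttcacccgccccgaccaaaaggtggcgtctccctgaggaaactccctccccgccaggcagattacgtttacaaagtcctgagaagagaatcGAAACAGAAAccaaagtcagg
GBP1, chr1:89065209-89065408, minus strand: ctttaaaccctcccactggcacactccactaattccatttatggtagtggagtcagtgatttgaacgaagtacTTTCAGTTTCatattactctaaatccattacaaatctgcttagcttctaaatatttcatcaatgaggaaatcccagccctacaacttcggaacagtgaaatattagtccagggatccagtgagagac

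Each library held between 14.8 M and 71.6 M counts. RRAGC (ENSG00000116954) fell with both siRNAs, from 62.4 ± 2.75 CPM (counts scaled to library size; mean ± SD, n = 6) with siCtrl to 23.9 ± 7.58 with siRagC1 and 27.8 ± 8.30 with siRagC2. The log2 fold changes were -1.43 ± 0.17 (SE) and -1.20 ± 0.17, with edgeR adjusted p = 0.000373 and 0.00135. Of the markers set for the line, VIM, CD44, EGFR and AXL stood at 475 CPM or more in every library, while the hormone receptor genes ESR1 and PGR reached at most 0.141 and 0.164 CPM and CDH1 at most 1.60. All 5 leukocyte markers stayed at or below 1.13 CPM in all libraries. The fibroblast gene COL1A1 ran from 22.5 to 72.8 CPM and rose with siRagC2 (log2 fold change 0.75 ± 0.20, edgeR adjusted p = 0.044), while the other fibroblast markers COL1A2 and DCN reached at most 1.21 and 0.182 CPM. Its part in the results below was not tested.

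The libraries labelled siRagC1 replicate 6 and siRagC2 replicate 6 ran against the other numbers in how the siRNAs differed. For numbers 1 to 5, siRagC1 stood above siRagC2 in 30, 34, 28, 30 and 31 of the 40 members, and for number 6 in 10. The median difference over the members, on the log2(CPM + 0.5) scale, was 0.13, 0.15, 0.061, 0.059 and 0.12 for numbers 1 to 5 and -0.10 for number 6. This was not limited to the interferon genes. Over the other tested genes, the siRagC1 to siRagC2 difference of each of numbers 1 to 5 correlated with the mean of the other 4 at r = 0.392, 0.391, 0.291, 0.272 and 0.304, and that of number 6 with the mean of all 5 at r = -0.26. These correlations are across genes, which are not replicates and share libraries and depth, and carry no p. RRAGC itself was lower with siRagC1 than with siRagC2 for numbers 1 to 5 (18.8 and 19.3, 12.3 and 21.6, 31.7 and 40.8, 25.4 and 30.4, 23.3 and 32.6 CPM) and higher for number 6 (31.9 and 21.8 CPM). The libraries were kept under their labels, and the comparisons over all libraries, those in D1221 and the tests between code series are given with the pair numbered 6 and without it. That alternative was chosen after the values were seen, and no cause of the difference was tested.

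**Figure D1:**
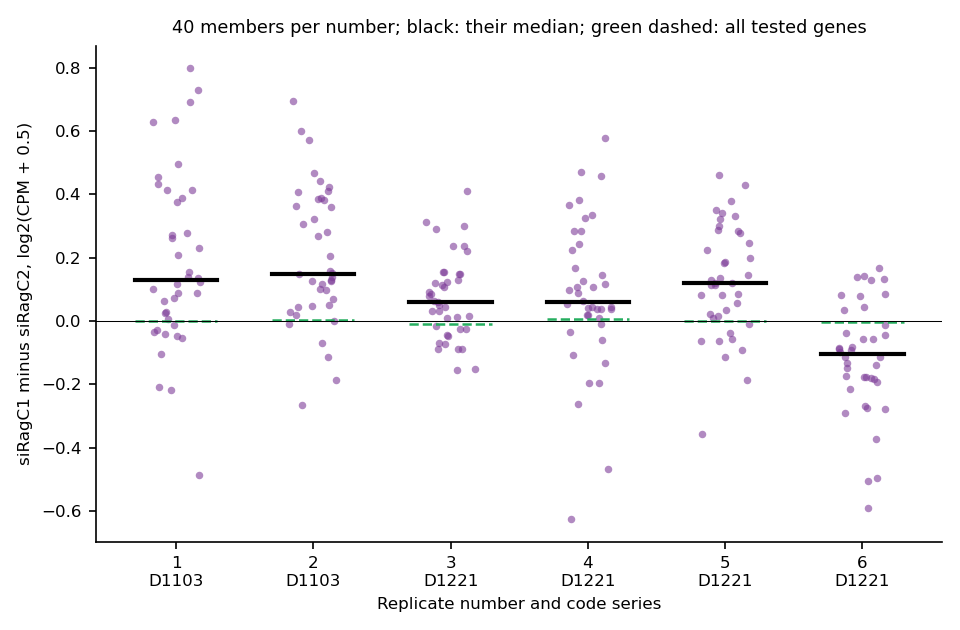
Difference between the siRNAs for each of the 40 tested genes (points; siRagC1 minus siRagC2, log2(CPM + 0.5)) by replicate number and code series. Black bars are medians over the 40 genes and green dashed bars medians over all 15307 tested genes; the black bars lie between 0.059 and 0.15 for numbers 1 to 5 and at -0.10 for number 6.

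With siRagC1 against siCtrl, 1 member rose and 0 fell. The gene was IFIH1, which encodes MDA5, the sensor of long double-stranded RNA. edgeR called 1.41% of all tested genes higher and 0.627% lower in this comparison, so the members' count of 1 in 40 was near the background. In RNA of whole cultures a change in every cell and a change in some of them cannot be told apart. At an unadjusted p under 0.05 there were 11 members higher and 1 lower (RIGI), where all genes gave 9.26% and 7.81%. The direction was more uneven than the calls: 32 of 40 log2 fold changes were above 0, against 51.7% of all tested genes, and their median was 0.097 against 0.0051 over all genes. With a term for the replicate number (the replicate block) edgeR called 4 members higher, IFIH1, ISG20, IFI27 and IFI35, and 0 lower, where all genes gave 3.29% and 2.36%.

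With siRagC2 against siCtrl, 0 members rose and 1 fell, GBP1, a GTPase of the guanylate-binding family that acts on the membranes of intracellular pathogens. The background was 1.87% of tested genes higher and 1.36% lower. At an unadjusted p under 0.05, 5 members were higher and 8 lower, beside 9.93% and 8.58% of all genes, and the 40 values were divided into 22 above and 18 below 0 with a median of 0.022 (0.0047 over all genes). Under the replicate block 1 member was higher (IFI27) and 1 lower (GBP1), beside 3.66% and 2.78% of all genes. The comparisons of siRagC1 and siRagC2 share the 6 siCtrl libraries, and their values for each gene are set side by side below.

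**Figure D2:**
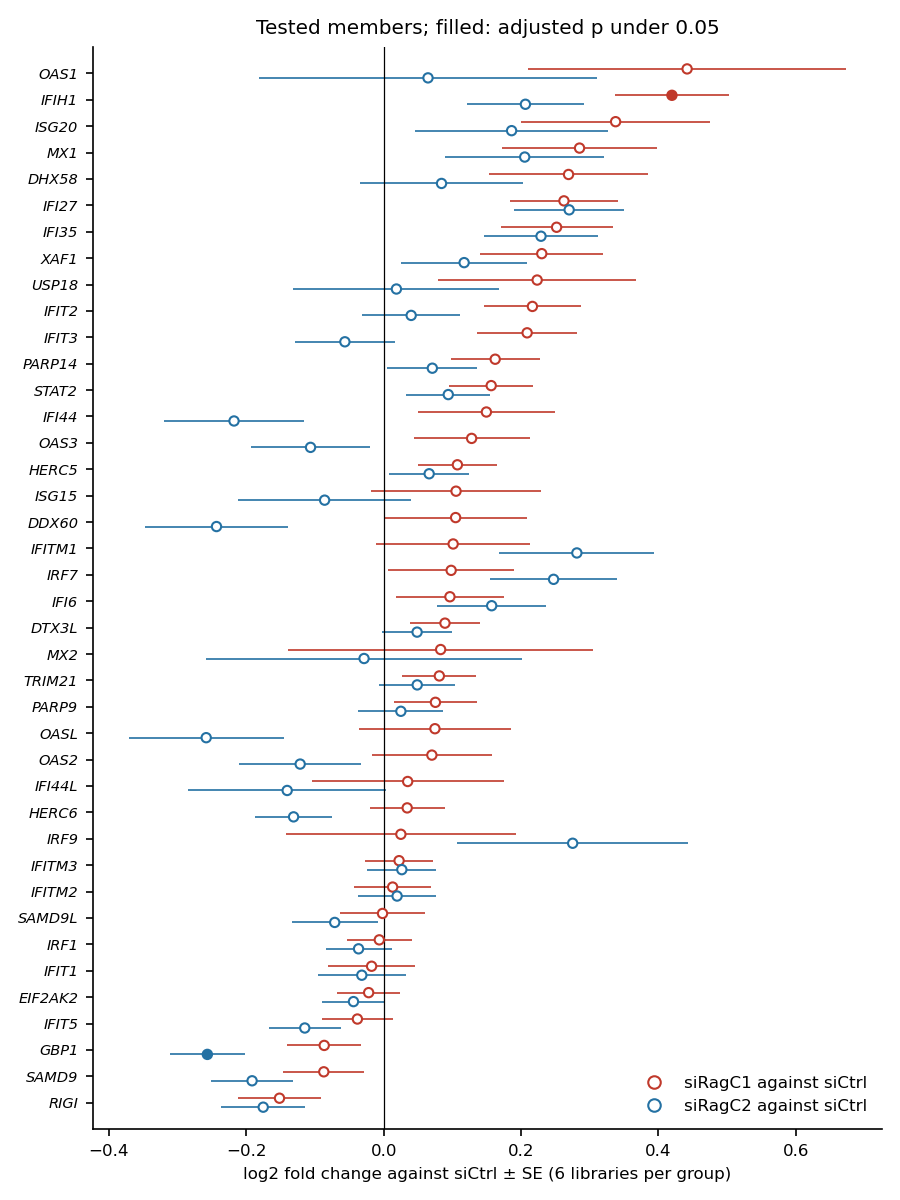
Log2 fold change against siCtrl ± SE for each tested member (rows), with siRagC1 in red and siRagC2 in blue, 6 libraries per group; filled points have an edgeR adjusted p under 0.05. The red values lie above 0 for 32 of 40 genes and the blue for 22, and the filled points are IFIH1 with siRagC1 and GBP1 with siRagC2.

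Among the sensors, IFIH1 (ENSG00000115267) ran from 8.75 to 12.5 CPM with siCtrl (median 9.81), from 9.42 to 20.7 with siRagC1 (median 12.5) and from 9.94 to 15.1 with siRagC2 (median 11). The groups overlapped over all libraries, but in each of the 6 numbers the siRagC1 library was above its siCtrl library, and so was the siRagC2 library. How many of all tested genes lay on 1 side in all 6 numbers was not counted, here or for the members below. The pairing by number is not established either, so these counts have no background. Within each code series the siRagC2 libraries lay above those of siCtrl without overlap. Such separation was found for 25.4% of all tested genes in D1103 and for 3.34% in D1221. The 2 highest libraries of all, 18.6 and 20.7 CPM, were siRagC1 replicates 1 and 2 of D1103. The rise with siRagC1 was 0.42 ± 0.084 on the log2 scale (edgeR adjusted p = 0.0124), and the siRagC2 value was 0.21 ± 0.086 (edgeR adjusted p = 0.192). The siRagC1 call was lost without replicate 1, 2 or 5 of all groups and without the library siRagC1 replicate 2 (edgeR adjusted p = 0.119, 0.132, 0.0534 and 0.0502). Within code series, the value was 0.66 (adjusted p = 0.00107) in D1103 alone and 0.27 (adjusted p = 0.727) in D1221 alone, both by edgeR. DHX58 (LGP2, a sensor-like helicase that tunes MDA5 and RIG-I signalling; ENSG00000108771) ranged over 6.83 to 11.5 CPM with siCtrl, 7.03 to 15.9 with siRagC1 and 7.15 to 12 with siRagC2. Its groups overlapped, and the values 0.27 ± 0.12 and 0.084 ± 0.12 did not pass (edgeR adjusted p = 0.23 and 0.778). RIGI, the sensor of RNA with a free triphosphate end, went the other way from IFIH1, at -0.15 with siRagC1 and -0.18 with siRagC2, and passed with neither (edgeR adjusted p = 0.196 and 0.114).

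The 11 effectors that act on RNA or its translation had 0 calls with either siRNA. Their log2 fold changes ran from -0.038 to 0.44 with siRagC1, with 8 above 0, and from -0.26 to 0.19 with siRagC2, with 3 above 0. OASL, a member of the oligoadenylate synthetase family that enhances RIG-I signalling (ENSG00000135114), ran from 22.9 to 47.7 CPM with siCtrl (median 24.9), 16.8 to 52.9 with siRagC1 (median 27.3) and 18 to 34.7 with siRagC2 (median 23.7). Within each group its 2 libraries of D1103 lay above all 4 of D1221. The siRagC2 value was -0.26 ± 0.11 and the siRagC1 value 0.075 ± 0.11 (edgeR adjusted p = 0.22 and 0.786). ISG20 (ENSG00000172183), an exonuclease of single-stranded RNA, had a siRagC1 value of 0.34 ± 0.14 and was above its siCtrl library in all 6 numbers without passing (edgeR adjusted p = 0.205). Its libraries covered 3.26 to 10.2 CPM with siCtrl, 5.84 to 14.2 with siRagC1 and 5.90 to 11.6 with siRagC2. OAS1, the synthetase whose product activates RNase L, had the largest siRagC1 value of the 40 (0.44 ± 0.23) on levels of at most 1.32 CPM, and its error spanned most of it (edgeR adjusted p = 0.341). IFIT1, which binds capped viral RNA, and EIF2AK2, the kinase PKR that stops translation, stayed within 0.05 of 0 with both siRNAs.

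Among the GTPases, GBP1 (ENSG00000117228) was the 1 member of the 40 with all siRagC2 libraries below all siCtrl libraries, which held for 0.542% of tested genes. It ran from 53.7 to 61.0 CPM with siCtrl (median 58.7), from 49.2 to 60.4 with siRagC1 (median 52.6) and from 43.5 to 52.2 with siRagC2 (median 49.1). The siRagC1 libraries reached into both other groups. The fall with siRagC2 was -0.26 ± 0.055 on the log2 scale (edgeR adjusted p = 0.0129), and the siRagC1 value was -0.087 ± 0.054 (edgeR adjusted p = 0.433). The call was lost without replicate 1, 2 or 5 of all groups (edgeR adjusted p = 0.0988, 0.0625 and 0.0552). Within code series the value was -0.41 in D1103 alone (edgeR adjusted p = 0.00158) and -0.18 in D1221 alone (edgeR adjusted p = 0.324). MX1 (ENSG00000157601), a dynamin-like trap for viral nucleocapsids, ran from 2.28 to 5.49 CPM with siCtrl, 2.81 to 6.79 with siRagC1 and 3.24 to 6.17 with siRagC2. It was above its siCtrl library in 6 of 6 numbers with siRagC1, but the value of 0.29 ± 0.11 did not pass (edgeR adjusted p = 0.19).

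The genes of membranes and viral entry had 0 calls, and all 5 tested values were above 0 with each siRNA. IFI27 (ENSG00000165949), a mitochondrial and endoplasmic reticulum protein, ran from 12.4 to 19.7 CPM with siCtrl, 14.5 to 22.2 with siRagC1 and 15.0 to 22.3 with siRagC2. It stood above the siCtrl library of its number in 6 of 6 numbers with each siRNA. Its values were 0.26 ± 0.079 and 0.27 ± 0.080, just short of the threshold (edgeR adjusted p = 0.0825 and 0.0657). OAS1, ISG15 and USP18 were likewise above in 6 of 6 numbers with siRagC1, and IFI6, IRF7 and IFI35 with siRagC2, without passing. Under the replicate block IFI27 passed with both, at 0.26 and 0.26 (edgeR adjusted p = 0.00423 and 0.0037). IFITM1 (ENSG00000185885), which restricts the fusion of viruses with cell membranes, ran from 3.06 to 4.90 CPM with siCtrl, 3.70 to 4.86 with siRagC1 and 4.13 to 5.46 with siRagC2. Its siRagC2 value was 0.28 ± 0.11 (edgeR adjusted p = 0.175). IFITM2 and IFITM3 stayed within 0.03 of 0 with both siRNAs. The IFITM genes are related genes side by side on the chromosome. IFITM1 and IFITM2 share 351 annotated exonic bases on the same strand in GENCODE 29, so the counts of these 2 may be divided between them unevenly.

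The genes of the ISG15 system had 0 calls. ISG15 itself, a ubiquitin-like protein joined to other proteins, ran from 30.7 to 87.8 CPM with siCtrl, 42.3 to 92.4 with siRagC1 and 43.7 to 68.0 with siRagC2, and its values of 0.11 ± 0.12 and -0.086 ± 0.13 were within their errors of 0. HERC6, a ligase related to HERC5, which attaches ISG15, lay below its siCtrl library in all 6 numbers with siRagC2 at -0.13 ± 0.056 (edgeR adjusted p = 0.204). Among the transcription factors STAT2, IRF1, IRF7 and IRF9, 0 passed with either siRNA. IRF9 (ENSG00000213928), a DNA-binding factor of the interferon response, ran from 1.05 to 2.43 CPM with siCtrl, 1.22 to 1.98 with siRagC1 and 1.85 to 2.32 with siRagC2. Its siRagC2 value of 0.28 ± 0.17 did not pass (edgeR adjusted p = 0.413), and 48.4% of its exonic bases overlap another annotated gene on the same strand. PARP9, PARP14 and DTX3L, which work together in ADP-ribosylation and ubiquitination after interferon, ran from 0.075 to 0.16 with siRagC1 and from 0.025 to 0.071 with siRagC2. Among the other effectors, IFI35 (ENSG00000068079) ran from 9.95 to 20.1 CPM with siCtrl, 12.3 to 24.8 with siRagC1 and 12.7 to 23.3 with siRagC2. Its values of 0.25 ± 0.082 and 0.23 ± 0.083 did not pass (edgeR adjusted p = 0.107 and 0.128), and it passed with siRagC1 under the replicate block (edgeR adjusted p = 0.0378).

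Set directly against each other, the siRNAs gave 0 called members and 0 called genes in all with edgeR. DESeq2 called 18 genes higher and 11 lower, with 0 members among them, and limma-voom called 0. At an unadjusted p under 0.05 edgeR had 10 members higher with siRagC1 and 0 lower, beside 635 genes higher (4.15%) and 552 lower (3.61%) of all tested. Of the 40 members 33 were higher with siRagC1, against 49.7% of all genes, with a median log2 difference of 0.086 (-0.00060 over all genes). By role, all 11 RNA-directed effectors were on the siRagC1 side (median 0.19), as were the 3 sensors (0.18), the 4 genes of the ISG15 system (0.18) and the 7 other effectors (0.10). The 5 tested genes of membranes and entry were all on the siRagC2 side, at a median of -0.0076, and the 4 transcription factors were divided evenly at -0.060. These medians describe the list and have no test.

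Without the pair numbered 6, 7 members were higher with siRagC1 than with siRagC2 and 0 were lower, where 0.834% of all 15353 genes tested in that fit were called higher and 0.534% lower. The 7 were OASL, DDX60, IFIT3, IFI44, OAS3, HERC6 and IFIH1, of which all but OASL and IFIH1 are described because of these values. The pair was left out after its values in these same genes had been seen, so the calls describe the other 5 numbers and are no independent test. Of the 40 members 36 were on the siRagC1 side and the median was 0.098 (0.0013 over all genes). With the replicate block as well, 11 members were called, with DHX58, OAS2, GBP1 and ISG15 added, beside 3.51% of all genes higher and 3.4% lower. Leaving out only siRagC1 replicate 6 gave 5 members (0.335% of all genes higher), and leaving out only siRagC2 replicate 6 gave 0.

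OASL showed the largest difference, at 0.49 ± 0.071 without the pair (edgeR adjusted p = 0.00105) and 0.33 ± 0.11 with it (edgeR adjusted p = 0.437). For numbers 1 to 5 it stood at 50.3, 52.9, 26.9, 25.2 and 27.7 CPM with siRagC1 and at 30.1, 34.7, 21.9, 18 and 21.9 with siRagC2, and for number 6 at 16.8 and 25.5. The siRagC1 library of number 6 was thus the lowest of all 18. DDX60, a helicase linked to RIG-I signalling and RNA decay, stood at 84.7, 94.5, 82.7, 84.3 and 78.1 CPM with siRagC1 and at 48.5, 71.0, 66.6, 61.3 and 56.6 with siRagC2 for numbers 1 to 5, and at 55.1 and 71.4 for number 6. Over all libraries siRagC1 and siRagC2 overlapped, and siCtrl, at 67.9 to 81.2 CPM, overlapped both. The difference was 0.48 ± 0.081 without the pair (edgeR adjusted p = 0.00441) and 0.35 ± 0.10 with it (edgeR adjusted p = 0.386). Both genes carry the larger part of this difference on the siRagC2 side. Without the pair, siRagC2 against siCtrl was -0.33 for OASL and -0.29 for DDX60 (edgeR adjusted p = 0.00976 and 0.0394). Neither gene was called with siRagC1 against siCtrl in that fit. With the replicate block as well, OASL passed at -0.34 (edgeR adjusted p = 0.00588) and DDX60 did not at -0.27 (edgeR adjusted p = 0.0689).

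IFIT3, the partner that stabilises IFIT1 on viral RNA, stood at 128, 136, 66.7, 67.7 and 70.8 CPM with siRagC1 and at 82.5, 101, 61.7, 51.8 and 59.6 with siRagC2 for numbers 1 to 5, and at 56.8 and 66.1 for number 6. Its siCtrl libraries stood at 107, 104, 56.8, 58.4, 60.6 and 61.2 CPM. IFIT3 was higher with siRagC1 than with siCtrl in numbers 1 to 5 and lower in number 6. Without the pair, siRagC1 against siCtrl was 0.25 ± 0.061 (edgeR adjusted p = 0.0199). Against siRagC2 it was 0.36 ± 0.064 without the pair (edgeR adjusted p = 0.006) and 0.27 ± 0.073 with it (edgeR adjusted p = 0.354). IFI44, a cytoplasmic protein induced by interferon, stood at 53.1, 67.0, 43.3, 47.2 and 45.7 CPM with siRagC1 and at 32.7, 44.9, 35.1, 31.5 and 37.5 with siRagC2, and at 33.5 and 40.7 for number 6. The difference was 0.49 ± 0.087 without the pair (edgeR adjusted p = 0.00625) and 0.37 ± 0.10 with it (edgeR adjusted p = 0.354). OAS3, HERC6 and IFIH1 gave 0.33 ± 0.078, 0.21 ± 0.050 and 0.30 ± 0.072 without the pair (edgeR adjusted p = 0.0418, 0.0419 and 0.0426). GBP1 reached 0.22 and did not pass (edgeR adjusted p = 0.0557).

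**Figure D3:**
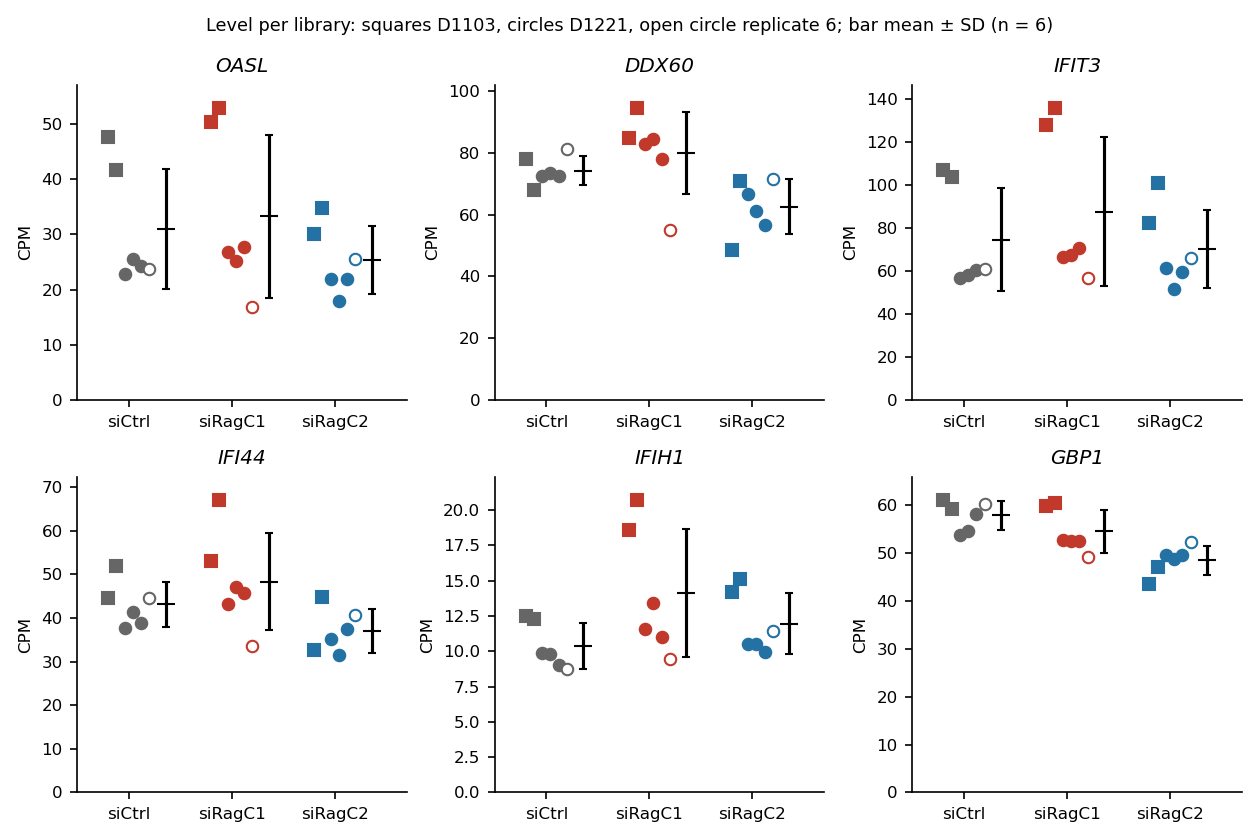
CPM of 6 members in each library by group (squares D1103, filled circles D1221, open circle replicate 6; black bar mean ± SD, n = 6). The siRagC1 replicate 6 library is the lowest siRagC1 point in each panel, at 16.8 CPM for OASL and 55.1 for DDX60, and every siRagC2 point of GBP1, at most 52.2 CPM, lies below every siCtrl point.

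The difference between the siRNAs recurred in the same genes from number to number. In each of numbers 1 to 5, 15 members were higher with siRagC1 than with siRagC2, a pattern found in 10.1% of all genes. All 15 were lower in number 6, and 7.40% of all genes were likewise higher in numbers 1 to 5 and lower in number 6, so most genes with the first pattern turned there. The 15 were the 7 called above with DHX58, OAS1, OAS2, IFIT2, ISG20, GBP1, ISG15 and PARP9. IRF7, which drives further interferon production, was lower with siRagC1 in all 6 numbers, as were 3.31% of all genes. The members are not independent of each other: 20 of the 41 lie in 9 runs of neighbouring genes in RefSeq order, among them OAS1, OAS3 and OAS2, IFIT2 and IFIT3, and IFI44L and IFI44. Of the 7 called genes 6 had a promoter window, and of these DDX60, IFIT3, IFI44, OAS3 and IFIH1 held the GAAA-NN-GAAA core and HERC6 did not.

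**Figure D4:**
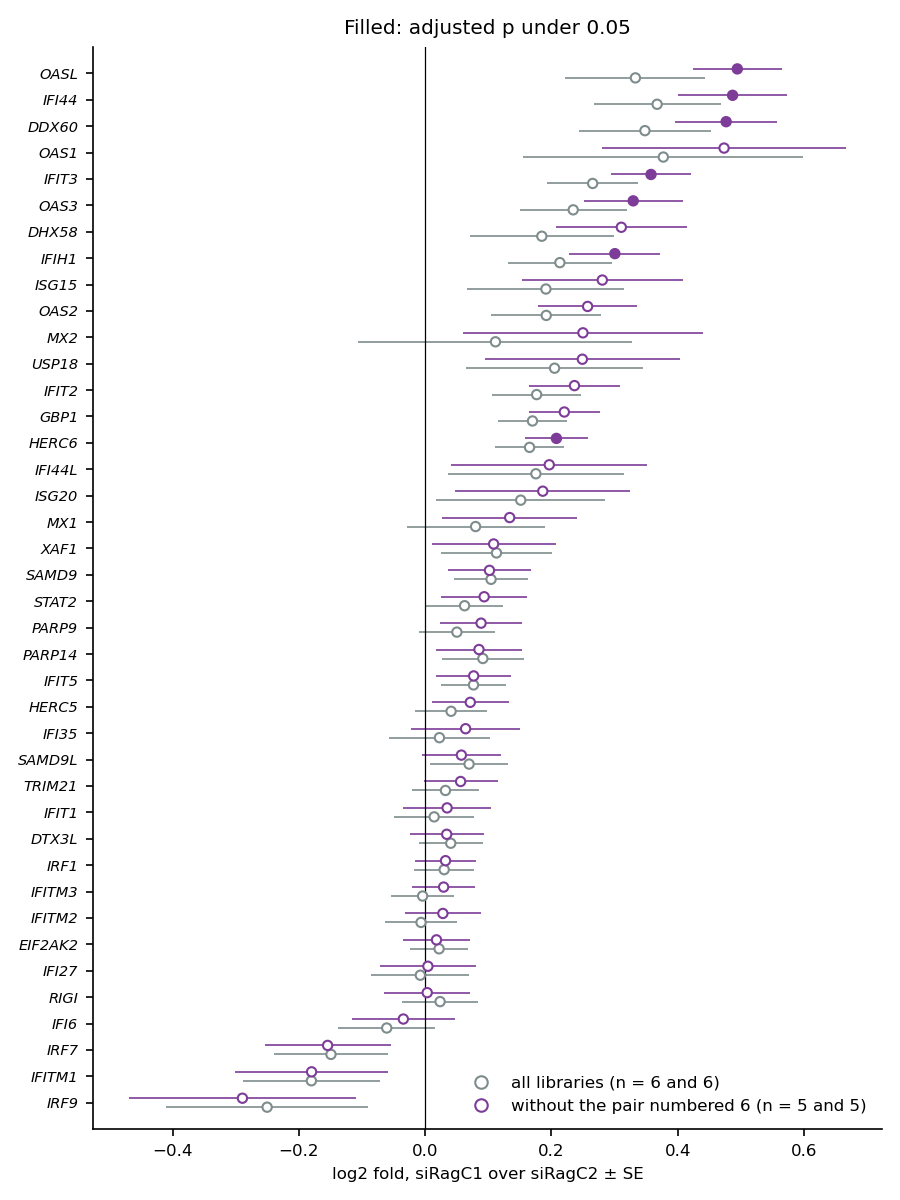
Log2 fold of siRagC1 over siRagC2 ± SE for the 40 tested members, with all libraries (grey) and without the pair numbered 6 (purple); filled points have an edgeR adjusted p under 0.05. With all libraries 33 values lie above 0 and 0 points are filled; without the pair 36 lie above 0 and 7 are filled, with OASL highest at 0.49.

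A single level per library was also taken over the members. Each library was given the median over the 40 members of its log2(CPM + 0.5) difference from the mean siCtrl level of its code series. The siRagC1 libraries stood at 0.13, 0.18, 0.12, 0.063 and 0.12 for numbers 1 to 5 and at -0.069 for number 6. The siRagC2 libraries lay between -0.054 and 0.056, and the siCtrl libraries between -0.047 and 0.045. The siRagC1 libraries numbered 1 to 5 thus lay above both groups, the lowest narrowly at 0.063, and number 6 lay below them. Each siCtrl library is part of the mean it is set against, which draws the siCtrl values toward 0. The separation from siCtrl is therefore partly built in, and it was not tested. The median of a library covers genes that went both ways. IFI44 and HERC6 were lower with siRagC2 than with siCtrl in 6 of 6 numbers, and the share of all genes that were so was not counted. Their values were -0.22 and -0.13 over all libraries and did not pass (edgeR adjusted p = 0.257 and 0.204). Against siCtrl without the pair, siRagC1 had 4 members higher (IFIH1, IFIT2, IFIT3 and IFI27; all genes 3.13%) and 0 lower (2.42%) and siRagC2 had 1 higher (IFI27; 2.72%) and 3 lower (OASL, DDX60 and GBP1; 2.18%), by edgeR. The number of members higher with siRagC1 became 12 when the replicate block was added (all genes 6.39%).

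The median of the members with siRagC1 against siCtrl was 0.19 in D1103 alone and 0.049 in D1221 alone, and between the siRNAs 0.15 and 0.045. Without the pair numbered 6 the D1221 medians were 0.11 and 0.098. The difference between the series did not pass a test in any member, and its median over the members moved with that pair: for siRagC1 it was 0.14 with all libraries, 0.076 without siRagC1 replicate 6 and 0.069 without the pair, and for siRagC1 minus siRagC2 0.15, 0.076 and 0.092. In D1103 alone (n = 2 per group) edgeR called 3 members higher with siRagC1 (IFIH1, IFIT3 and STAT2; all genes 2.12%) and 0 lower (1.3%). With siRagC2 it called 0 higher (3.82%) and 3 lower (OASL, GBP1 and ISG15; 3.28%). Between the siRNAs it called 6 higher with siRagC1 (IFIH1, OASL, OAS3, IFIT3, GBP1 and ISG15; 0.828%) and 0 lower (0.6%). In D1221 alone (n = 4 per group) it called 0 members in each comparison, and of all 15016 genes at most 1 in either direction (0.00666%). Without the pair it again called 0 members in each comparison, and of all 15104 genes 14 higher with siRagC1 than with siCtrl (0.0927%) and at most 2 in any other comparison or direction. The interaction of group and code series gave 0 members and 0 genes for siRagC1, for siRagC2 and for their difference, with 1, 4 and 6 members and 2.03%, 6.66% and 3.83% of all genes at an unadjusted p under 0.05 by edgeR, and 0 calls by limma-voom. Without the pair it also gave 0 calls, with 1, 4 and 4 members and 1.6%, 5.55% and 2.34% of all genes at an unadjusted p under 0.05 by edgeR. The 22 members whose 2 siRagC1 libraries of D1103 lay above both siCtrl libraries compare with 24.7% of all genes that did so.

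The members also differed between the code series of the control libraries, by up to 1.04 on the log2 scale, in a comparison added after the values were seen. With siCtrl, 22 of 40 members were higher in D1103 (n = 2) than in D1221 (n = 4) and 0 were lower, where edgeR called 12.3% of all genes higher and 11.5% lower. Of the members 35 lay above 0, and their median log2 difference was 0.35 (-0.00090 over all genes). OAS2, a synthetase of the RNase L pathway, was 2.05-fold higher, USP18, which removes ISG15 and damps the interferon receptor, 1.91-fold, IFIT1 1.87-fold, OASL 1.85-fold, ISG15 1.80-fold and IFIT3 1.78-fold. All 6 passed, with edgeR adjusted p from 6.66e-06 (IFIT1) to 0.00639 (USP18). DDX60 and GBP1 did not follow, at 0.973-fold and 1.06-fold (edgeR adjusted p = 0.874 and 0.318). The siRagC1 libraries had 28 members higher in D1103 (all genes 10%) and the siRagC2 libraries 19 (4.84%), each with 0 lower (9.88% and 5.68%). Without siCtrl replicate 2 the control count was 9, when 363 of all genes were called in place of 3638. What distinguished the series cannot be told apart from the replicate numbers it holds.

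**Figure D5:**
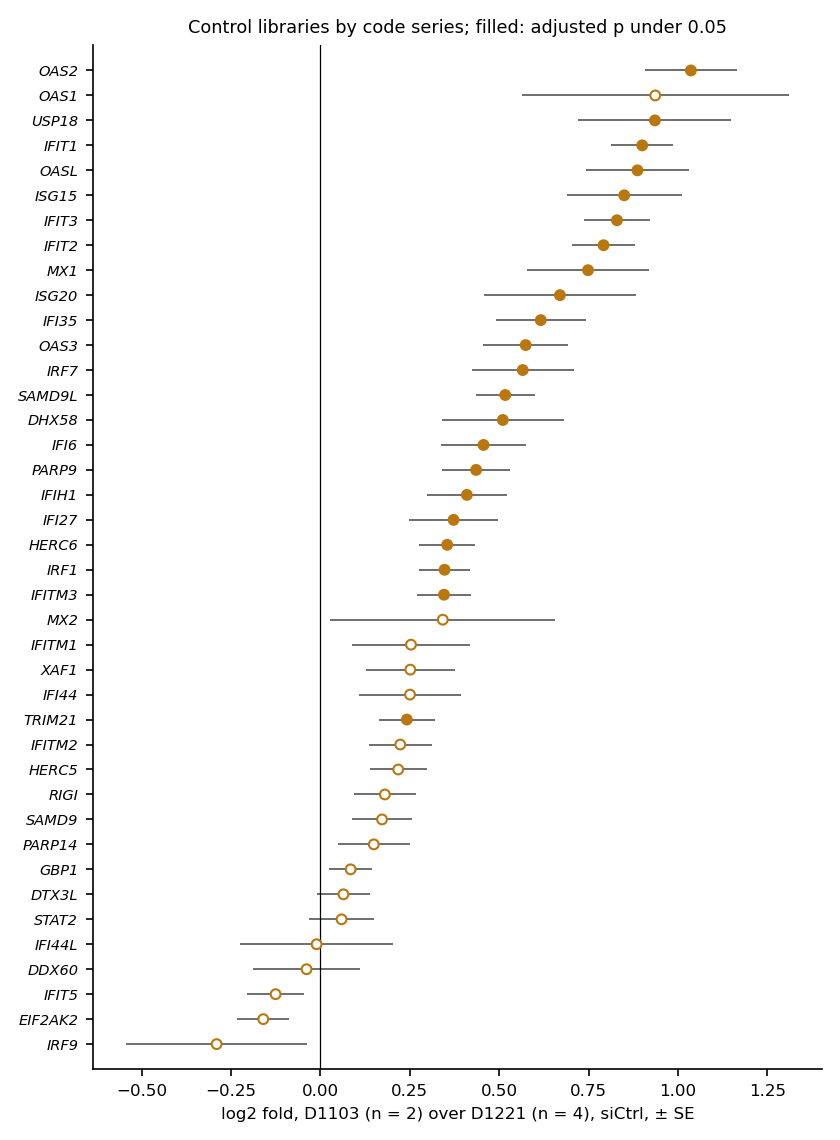
Log2 fold of D1103 (n = 2) over D1221 (n = 4) among the siCtrl libraries ± SE for the 40 tested members; filled points have an edgeR adjusted p under 0.05. Of the 40, 35 lie above 0 and 22 are filled, with OAS2 highest at 1.04.

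The rest of the pathway was covered by lists chosen with earlier results of these data known. Of the 9 interferon genes looked for, 8 (IFNB1, IFNA1, IFNA2, IFNL2, IFNL3, IFNG, IFNE and IFNK) had 0 counts in all 18 libraries. A count of 0 allows up to 3 counts, or 0.202 CPM in the shallowest library, and covers counting error only. IFNL1 had 7 counts in all, 2 with siCtrl, 2 with siRagC1 and 3 with siRagC2. Among receptors and JAK-STAT genes 0 of 15 passed with either siRNA. Of all tested genes edgeR called 1.41% higher and 0.627% lower with siRagC1, and 1.87% and 1.36% with siRagC2. In so short a list 0 calls is near that background.

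Among 17 tested genes of nucleic acid sensing, 1 was called higher with siRagC1 (all genes 1.41%) and 0 lower (0.627%). With siRagC2, 2 were called higher (1.87%) and 1 lower (1.36%). IFI16, a DNA sensor, rose with both siRNAs, at 0.20 ± 0.053 and 0.24 ± 0.053 (edgeR adjusted p = 0.0467 and 0.0152). IRF5, a factor for inflammatory and interferon genes, rose with siRagC2 at 0.60 ± 0.17 (edgeR adjusted p = 0.0476) on levels of 1.44 to 2.89 CPM in the siCtrl and siRagC2 libraries, and its siRagC1 value was 0.59 ± 0.16 (edgeR adjusted p = 0.0583). TRAF3, an adaptor of interferon induction, fell with siRagC2 by 0.20 on the log2 scale (edgeR adjusted p = 0.0421). Of 12 NF-kB target genes, ICAM1, an adhesion molecule, rose with siRagC2 at 0.43 ± 0.087 (edgeR adjusted p = 0.011), and NFKB1 fell with siRagC1 by 0.14 (edgeR adjusted p = 0.0408). They were the only calls of that list, where all genes gave 1.87% higher with siRagC2 and 0.627% lower with siRagC1. The 24 tested interferon-responsive genes outside the members had 0 calls, with medians of 0.036 and 0.022. The 15 tested genes of antigen presentation also had 0 calls, with 14 above 0 with siRagC1 and 12 with siRagC2 at medians of 0.086 and 0.084. Of all tested genes 51.7% were above 0 with each siRNA. Between the siRNAs all 15 receptor and JAK-STAT genes and all other lists also had 0 calls, where 0 of all tested genes were called. The receptor and JAK-STAT genes lay mostly on the siRagC2 side there, 12 of 15 at a median of -0.072, against 33 of 40 members on the siRagC1 side. Of all tested genes 49.7% were on the siRagC1 side.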

How the data were processed

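Total RNA (500 ng per library per the labels) of 18 MDA-MB-231 libraries was sequenced. The authors deposited 1 table of raw counts per gene. Per the submitters' processing notes, the tools were cutadapt 0.6.2 and STAR 2.7.6a and the build GRCh37/hg19. The sources used here do not give the counter, strand setting or annotation release, so reads of overlapping genes cannot be assigned to a strand. Totals ran from 14.8 M to 71.6 M counts. Groups, replicate numbers and code series came from the labels. The titles call the replicates BioRep, for biological replicate, but do not say whether they were separate cultures. The spread between samples that p-values measure may therefore still be technical in part. Replicates of a group differed by at least 2.81 times the counting variance, so no libraries of a group agreed within counting noise.

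Counts were fitted in R 4.3.3 with edgeR 4.0.16 (TMM, filterByExpr, robust quasi-likelihood F test) over all 18 libraries, with terms for group and code series. Benjamini-Hochberg adjustment ran over 15307 genes, with a threshold of 0.05. CPM used TMM-scaled library sizes. Alternatives used RLE factors, no filter, at least 5 CPM in 6 libraries, DESeq2 1.42.0, limma-voom 3.58.1, the replicate block, no series term, each series alone, the compared groups alone, and each number or library left out. The procedure was tested on simulated data. Members, lists and motifs were chosen with earlier results of these data known. Genes named were those past the threshold and the 8 other members with the largest change and a mean of at least 1 CPM; others were chosen after their values were seen. For 1 listed gene outside the members no value is reported here.

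Same-numbered libraries were taken as pairs because every correlation of their deviations from the group means exceeded 0.1 (siCtrl with siRagC1 0.106 to 0.705, siCtrl with siRagC2 0.172 to 0.578, siRagC1 with siRagC2 0.289 to 0.656). Same-numbered libraries also share a code series, which can itself give such correlations. After the code series was removed the correlations ran from -0.111 to 0.378. Those above 0.1 were then 5 of 6 for siCtrl with siRagC1 and 4 of 6 for each other combination. The pairing is therefore not established. The titles give each number after the word BioRep, for biological replicate, and do not say whether equal numbers mark libraries made together.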

Additional observations from a re-analysis of the deposited data

Results flagged for a closer look

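Of 120 groups of 6 values (40 members in 3 groups), 3 held a library that stood apart from the other 5 by Dixon's criterion, where chance flags about 1 in 20, or 6. Each group mixes both code series, which differed in many members, so that rate may not hold here. The count of 3 therefore cannot show that few libraries stood apart. RIGI was at 107 CPM in siRagC1 replicate 2, with the nearest library at 95.6. HERC5 was at 59.9 CPM in siRagC2 replicate 2, with the nearest at 51.0. STAT2 was at 91.1 CPM in siCtrl replicate 5, with the nearest at 101. With all libraries and the low-count filter, 0 of these 3 genes passed in any comparison by edgeR without the replicate block, and without the filter RIGI passed as lower with siRagC2.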

How the results depend on the processing

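Of the values that answer a comparison, 336 stayed near their value under an alternative (counts within 1.5 times, medians within the spread between replicates) and 46 moved. The 336 include the interaction counts, which were 0 in fits that called 0 of all genes. The spread allowed for medians includes the libraries numbered 6, which widen it. The tally is therefore no measure of how robust the results are. With siRagC1 against siCtrl the count of members higher was 1, and became 6 without a filter, 2 with DESeq2, 4 with the replicate block, 3 in D1103 alone (median of members 0.19), 0 in D1221 alone (with or without the pair numbered 6), 0 without the series term and 0 to 5 with a replicate or library left out. Without the pair numbered 6 it was 4, and 12 with the block too. With siRagC2 the counts higher and lower were 0 and 1. They became 2 and 5 without a filter, 1 and 2 with DESeq2, 1 and 1 with limma-voom, 1 and 1 with the replicate block, 0 and 3 in D1103 alone and 0 and 0 in D1221 alone (with or without the pair) or without the series term. With a replicate or library left out they ran from 0 to 1 and 0 to 2, and without the pair numbered 6 they were 1 and 3 (2 and 3 with the block). Between the siRNAs the count of 0 members higher became 4 without a filter (OASL, IFIT3, DDX60 and IFI44), 6 in D1103 alone, 7 and 11 without the pair (without and with the block) and 0 to 9 with a replicate or library left out. The 9 came without replicate 6 of every group. Among the fits with a replicate or library left out, the counts above 0 came only where siRagC1 replicate 6 was left out. The members higher in D1103 among controls ran from 9 to 22, with the 9 without siCtrl replicate 2. GBP1 with siRagC1 reversed in D1103 alone, at 3e-04. IFIH1 with siRagC1 was called in 20 of 24 fits with libraries left out (0.34 to 0.48), and GBP1 with siRagC2 in 21 of 24 (-0.29 to -0.21). Both lost the call without the series term (edgeR adjusted p = 0.387 and 0.076). The filter of 5 CPM left 34 members tested, so 6 of the 40, MX1, IFITM1 and IRF9 among them, had no value. With all 18 libraries the block changed no other member's call than those of ISG20, IFI27 and IFI35. Without the pair, the block with siRagC2 dropped DDX60 and added IRF7 and IFI44, so the counts 1 and 3 and 2 and 3 are not of the same genes, and between the siRNAs it added DHX58, OAS2, GBP1 and ISG15. RSAD2, at 0 to 27 counts per library, had no test with all libraries and the low-count filter. It was tested without the filter and in D1103 alone and was not called there.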
